A study of Mus musculus with 7 samples.

Results

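The receptors that resident macrophages use to bind and take up material from their surroundings are described here across 7 arrays of macrophages sorted from mouse colon. The 10 members are Folr2, Cd163, Mrc1, Stab1, Lyve1, Marco, Msr1, Cd36, Timd4 and Colec12. They were chosen by name with earlier results of these data known, and so were the related lists and markers below. Counts set beside the share of all genes are therefore descriptions and not tests. Each member was measured by the probe set whose single gene symbol is its own. All 10 were found among the 19938 genes measured, and each had 1 probe set.

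The study set 2 mutants against controls, all of C57BL/6 background, 6 weeks old and kept free of specific pathogens, and read RNA from the lamina propria, the tissue beneath the gut epithelium. Il10ra_mKO stands for CX3CR1cre:IL10Raflox/flox mice, in which Cre recombinase made from the Cx3cr1 locus deletes the interleukin-10 receptor gene Il10ra in the cells that express Cx3cr1, in the colon and elsewhere (2 arrays). Their controls were WT resident arrays, by label wild type and Cx3cr1gfp/+, a reporter allele that puts GFP at 1 Cx3cr1 copy (3 arrays). Il10_KO stands for IL10-/- CX3CR1gfp/+ mice, which lack interleukin-10 itself in every cell (1 array), set against a WT CX3CR1hi array of Cx3cr1gfp/+ mice (1 array). Every group carried an altered Cx3cr1 allele. The Il10ra_mKO and WT resident mice differed in that allele as well as in Il10ra, and no array carried Cre with an intact Il10ra, so allele and deletion cannot be told apart. The Il10ra_mKO and WT resident arrays have the sort label resident, the other 2 the sort label CX3CR1hi. The sort label runs with the RNA extraction kit and the array batch, which cannot be told apart from it, so each mutant was compared only within its own label. Whether the arrays of a group came from different mice is not in the labels, and p-values therefore cover the spread of these samples alone, part of which may be technical.

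Scavenger receptors bind modified lipoproteins, sugars, haemoglobin complexes, matrix fragments or dying cells, and carry them into endosomes for degradation. Several of them mark long-lived tissue macrophages, above all those beside blood vessels and nerves, and are low on monocytes that have just entered the tissue. Interleukin-10 signals through a receptor that holds Il10ra to the transcription factor STAT3, and in the gut it restrains the inflammatory response of macrophages.

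The deposited log2 values had array medians of 5.77 to 5.92. Pearson correlations across genes between arrays of 1 sort label ran from 0.969 to 0.994. Il10ra had log2 levels of 8.05 and 7.04 in the Il10ra_mKO arrays, against 10.56, 10.76 and 11.12 in the WT resident arrays. It read 11.61 in the Il10_KO array and 11.32 in the WT CX3CR1hi array. The deleted gene was thus lower in both Il10ra_mKO arrays, as their label says. Of 12 fixed macrophage markers 11 were measured, among them Csf1r, Adgre1 and C1qa. All 11 lay above 5.86, the median of all values, in every array. Their mean was 11.45 and 11.66 in the Il10ra_mKO arrays, against 11.32, 11.25 and 11.40 in the WT resident arrays. It was 11.83 in the Il10_KO array and 11.53 in the WT CX3CR1hi array. Single markers moved either way, from -0.49 for Cx3cr1 to 0.95 for Mertk in Il10ra_mKO minus WT resident, with 3 of the 11 lower. Lying above that median does not single out macrophages, since 9062 of the 19938 genes did so in all 7 arrays. So did 12 of 13 epithelial markers, whose mean was 10.71, 11.07 and 10.70 in the WT resident arrays.

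In the Il10ra_mKO arrays 8 of the 10 receptors had a lower mean than in the WT resident arrays, and the median difference over the 10 was -0.73 on the log2 scale, against 0.00 over all genes. Folr2, Lyve1, Cd163 and Cd36 were at least 2-fold lower with no overlap between the arrays, 4 of 10, where 1.35% of all genes met that rule. None was at least 2-fold higher with no overlap, which 0.913% of all genes were. Both Il10ra_mKO arrays lay below all 3 WT resident arrays for 7 receptors, all but Stab1, Marco and Msr1, against 8.5% of all genes. At an unadjusted p under 0.05 in limma, Folr2, Mrc1 and Cd36 were lower, 3 of 10 against 3.86% of all genes, and 0 of 10 were higher, against 4.06% of all genes. Centring each array on its median gave 803 lower and 1484 higher genes at that p, in place of 770 and 810. No receptor passed limma's Benjamini-Hochberg adjusted p of 0.05, a threshold passed by 0.00502% of all genes, which is 1 gene. These calls depend on the scaling: after median centring 1 receptor, Folr2, passed (limma adjusted p = 0.0327), with 65 genes lower and 81 higher over all, and after quantile normalization 0 receptors passed, with 56 genes lower and 58 higher. At an unadjusted p under 0.05 in limma, 8 receptors were called after median centring, beside the 803 lower and 1484 higher genes above. All but Marco, which was 0.11 higher, were lower. After quantile normalization 7 receptors were called, all lower, with 1012 of the 19938 genes lower and 964 higher. With 2 arrays against 3, and 3 residual degrees of freedom, the receptors are therefore described by their values in each array.

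**Figure D1:**
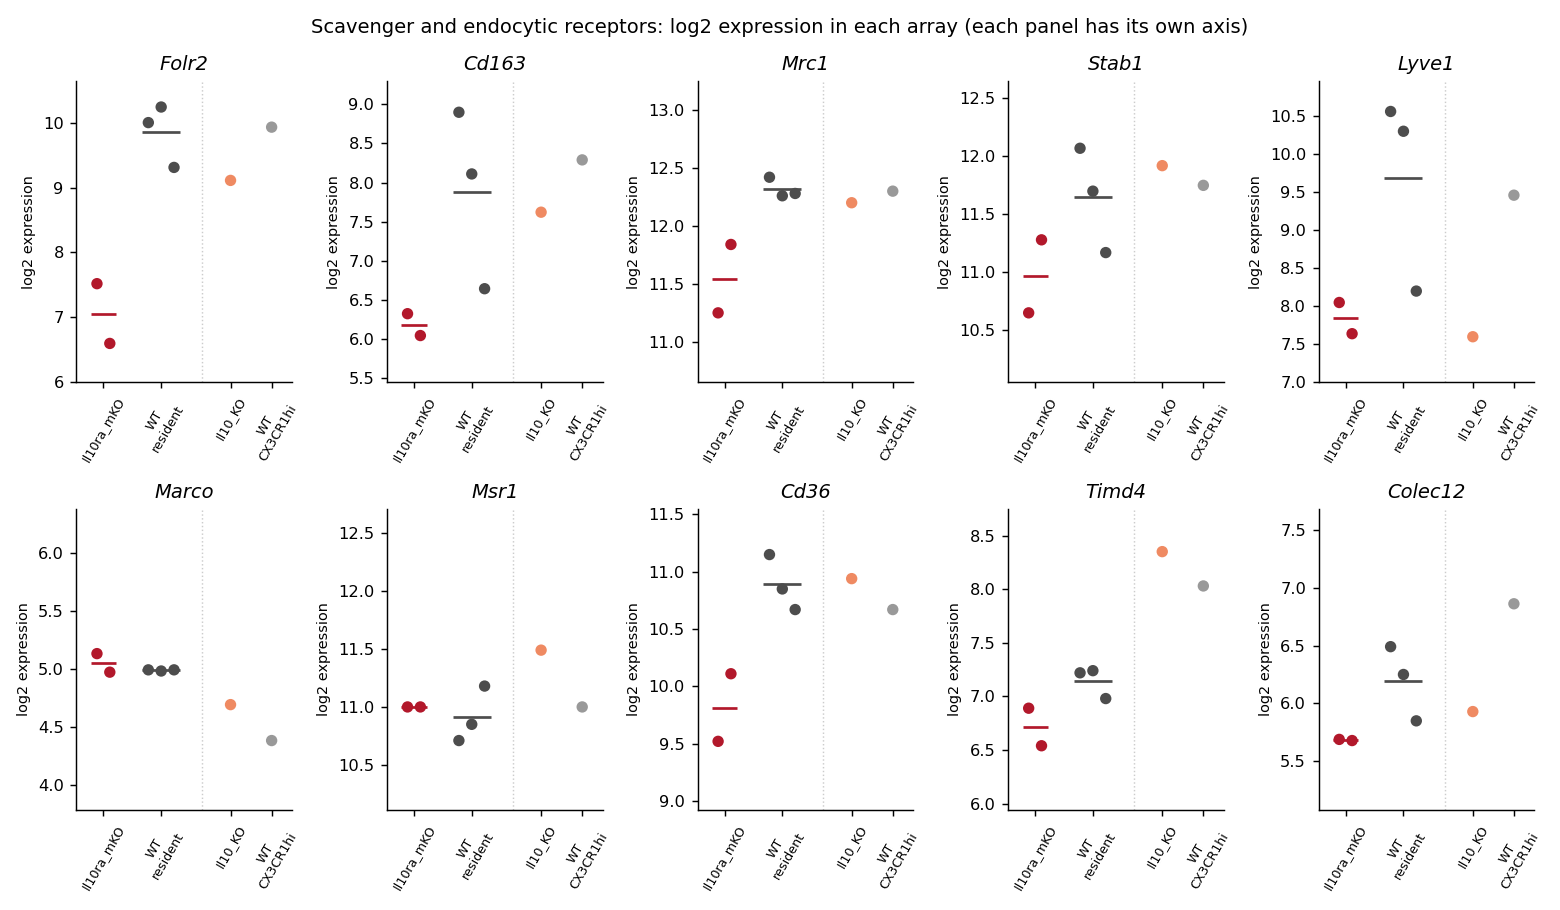
Deposited log2 level of the 10 receptors (one panel each) in every array, with the 2 Il10ra_mKO arrays left of the 3 WT resident arrays and the Il10_KO array left of the WT CX3CR1hi array. Points are single arrays and short lines are group means. Folr2 reads 7.52 and 6.60 in Il10ra_mKO arrays against 9.31 to 10.24 in WT resident arrays, and Msr1 reads 11 in both Il10ra_mKO arrays, inside the WT resident range of 10.71 to 11.18.

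Folr2 had the lowest difference of the 10. It encodes folate receptor beta, a membrane-anchored protein that binds folate and marks resident macrophages in many tissues. Its log2 level was 7.52 and 6.60 in the Il10ra_mKO arrays, against 10, 10.24 and 9.31 in the WT resident arrays (probe set 10566026). Both Il10ra_mKO arrays lay more than 1 log2 unit below the lowest WT resident array. The difference was -2.79 ± 0.44 (SE), or 6.93-fold lower, with a 95% interval of -4.04 to -1.54 and a limma adjusted p of 0.324 (0.0327 after median centring, 0.0642 after quantile normalization), and 0.0702% of all genes had a lower difference. By the sample numbers in the titles, arrays 54, 55 and 56 and arrays 67 and 68 form 2 runs of numbers that each hold both genotypes. Within these runs Folr2 differed by -2.60 and -2.72, so each run showed it at nearly the same size.

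Folr2 and Timd4 are the 2 receptors whose promoter windows hold a motif that the transcription factors PU.1 and IRF8 can bind jointly, so both windows are shown. The windows are from RefSeq (GRCm38.p6) and cover 250 bases before to 50 bases after each annotated start, and 7 of the 10 receptors matched an entry, with 8 windows among them. The Folr2 window shown, the 1 of its 2 with the match, is chr7:101857141-101857440 on the minus strand. The Timd4 window is chr11:46810549-46810848 on the plus strand. Capitals mark motif matches, and both sequences run 5′ to 3′ along the gene.
Folr2: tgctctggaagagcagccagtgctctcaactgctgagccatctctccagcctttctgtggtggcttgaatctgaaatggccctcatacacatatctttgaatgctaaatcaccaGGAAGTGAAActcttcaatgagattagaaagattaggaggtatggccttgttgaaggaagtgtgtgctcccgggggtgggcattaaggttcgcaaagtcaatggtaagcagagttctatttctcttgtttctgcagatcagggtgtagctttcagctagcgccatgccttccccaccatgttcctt
Timd4: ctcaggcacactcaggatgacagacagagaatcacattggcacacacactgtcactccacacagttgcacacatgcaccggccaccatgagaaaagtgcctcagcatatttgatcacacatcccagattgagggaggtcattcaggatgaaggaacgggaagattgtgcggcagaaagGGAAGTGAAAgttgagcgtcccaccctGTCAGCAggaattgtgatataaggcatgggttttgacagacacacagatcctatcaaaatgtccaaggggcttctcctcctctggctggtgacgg
The motif searched was GGAA, any 2 bases, then GAAA, on both strands. It stood in both windows as GGAAGTGAAA on the strand of the gene, at positions -136 to -127 from the start of Folr2, in 1 of its 2 windows, and at -72 to -63 from the start of Timd4. Of all 32851 windows 2.72% held it, and so did 3.16% of genes with a window, against 2 of the 7 receptors. The second capital stretch of Timd4, at -45 to -39, is TGCTGAC on the other strand, a core element bound by the MAF factors, found in 5.28% of genes and in 1 of the 7 receptors. TTCNNNGAA, the palindrome that STAT proteins can bind, stood in none of the 7 receptors' windows and in 9.55% of genes. A match is a string of letters in the reference and not a measured site, and these letters could lie outside the windows. The motifs were chosen after the windows had been read, so the shares beside the receptors are no test of enrichment.

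Lyve1 and Cd163, which together with Folr2 mark perivascular macrophages in many organs, were lower as well, but the WT resident arrays did not stand together. Lyve1 encodes a receptor for the matrix sugar hyaluronan, found on lymphatic endothelium and on tissue macrophages. Its log2 level was 8.05 and 7.64 in the Il10ra_mKO arrays, against 10.56, 10.30 and 8.20 in the WT resident arrays (probe set 10566934). The first 2 WT resident arrays were high and the third lay just above the higher Il10ra_mKO array. The difference was -1.84 ± 0.86 (SE), or 3.59-fold lower, with a 95% interval of -4.29 to 0.60 and a limma adjusted p of 0.678. Within the 2 number runs it was -2.38 and -0.56.

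Cd163 encodes the receptor that clears complexes of haemoglobin and haptoglobin. Its log2 level was 6.32 and 6.04 in the Il10ra_mKO arrays, against 8.90, 8.11 and 6.64 in the WT resident arrays (probe set 10541644). The groups did not overlap, and WT resident array 3 again lay near the Il10ra_mKO arrays. The difference was -1.70 ± 0.76 (SE), or 3.26-fold lower, with a 95% interval of -3.86 to 0.45 and a limma adjusted p of 0.678. Within the number runs it was -2.19 and -0.60.

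WT resident array 3 was at least 2-fold below both other WT resident arrays for Lyve1 and Cd163, 2 of the 10 receptors, where 0.0953% of all genes were, which is 19 genes. Against the mean of WT resident arrays 1 and 2, array 3 was 4.68-fold lower for Lyve1 and 3.65-fold lower for Cd163, and 0.81 log2 units lower for Folr2. Among the other genes of the 19 were Cd209f and Cbr2, both from the list of resident macrophage genes below, and 12 genes of small or structural noncoding RNAs and their hosts, such as Rmrp and Rpph1. Without array 3 the difference was -2.59 for Lyve1 (limma adjusted p = 0.335), -2.33 for Cd163 (limma adjusted p = 0.451) and -3.06 for Folr2 (limma adjusted p = 0.424). The part of this array in the spread of both genes was not tested beyond leaving it out.

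**Figure D2:**
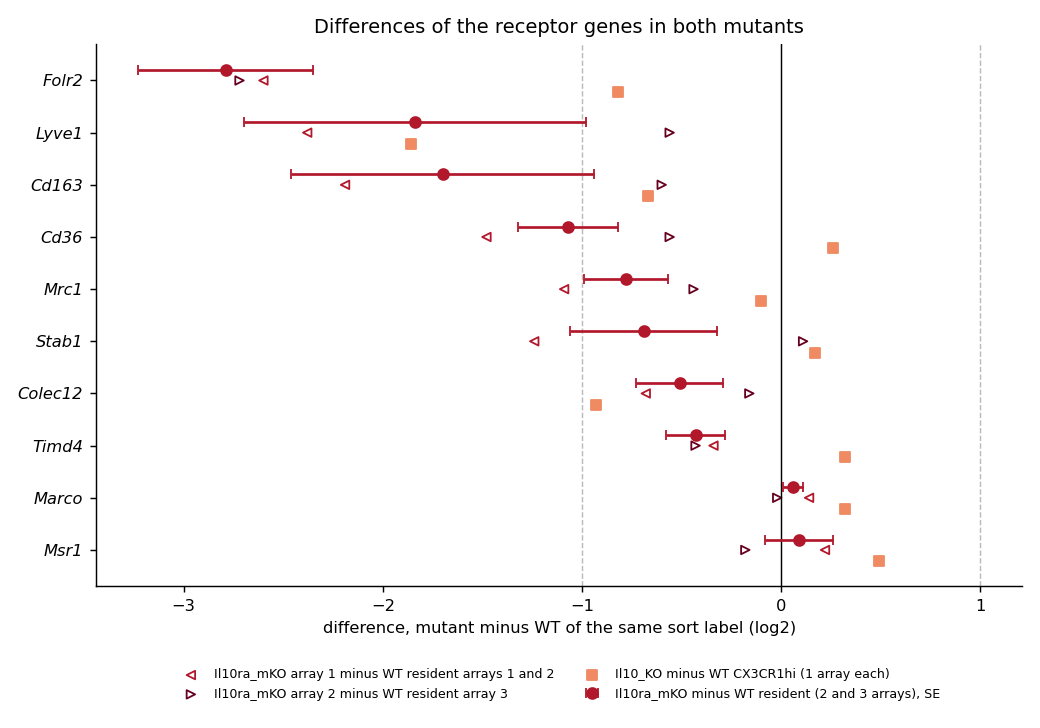
Log2 difference of each receptor: circles with bars are Il10ra_mKO minus WT resident with its SE from limma, triangles the same difference within each of the 2 runs of sample numbers, and squares Il10_KO minus WT CX3CR1hi (1 array each). Dashed lines mark a 2-fold difference. Folr2 sits at -2.79 with both runs beside it, while Lyve1 and Cd163 have runs far apart (-2.38 and -0.56 for Lyve1).

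Mrc1, Cd36 and Stab1 were less far apart between the genotypes. Mrc1 encodes the mannose receptor CD206, which takes up glycoproteins and microbes that bear mannose. It had log2 levels of 11.25 and 11.84 in the Il10ra_mKO arrays, against 12.42, 12.26 and 12.28 in the WT resident arrays (probe set 10469358). Both Il10ra_mKO arrays were below the narrow range of the WT resident arrays. The difference was -0.78 ± 0.21 (SE), or 1.71-fold lower, with a 95% interval of -1.36 to -0.19 and a limma adjusted p of 0.492. Within the number runs it was -1.09 and -0.44.

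Cd36 encodes a class B scavenger receptor for oxidised lipoproteins and long-chain fatty acids. Its log2 level was 9.52 and 10.11 in the Il10ra_mKO arrays, against 11.15, 10.85 and 10.67 in the WT resident arrays (probe set 10528207). The groups did not overlap. The difference was -1.07 ± 0.25 (SE), or 2.1-fold lower, with a 95% interval of -1.79 to -0.35 and a limma adjusted p of 0.45. Within the number runs it was -1.48 and -0.56.

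Stab1 encodes stabilin-1, a large receptor that clears acetylated lipoproteins and the matrix protein SPARC. Stab1 had log2 levels of 10.65 and 11.28 in the Il10ra_mKO arrays, against 12.07, 11.70 and 11.17 in the WT resident arrays (probe set 10418506). Here the groups overlapped, since Il10ra_mKO array 2 was above WT resident array 3. The difference was -0.69 ± 0.37 (SE), with a 95% interval of -1.72 to 0.35 and a limma adjusted p of 0.678. It was -1.24 in the first number run and 0.11 in the other, so the runs differed in sign.

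The 3 members of the class A family, whose extracellular part has a collagen-like stalk, did not share a direction. Msr1, the receptor for modified low-density lipoprotein that makes foam cells, read 11 in both Il10ra_mKO arrays, against 10.71, 10.85 and 11.18 in the WT resident arrays (probe set 10578264). Both Il10ra_mKO values lay inside the WT resident range, and the difference was 0.09 ± 0.17 (SE), with a 95% interval of -0.38 to 0.56 and a limma adjusted p of 0.862. A change of 2-fold either way lies outside that interval.

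Marco, a receptor for bacteria best known from alveolar and splenic marginal zone macrophages, read 5.13 and 4.97 in the Il10ra_mKO arrays, against 4.99, 4.98 and 4.99 in the WT resident arrays (probe set 10357261). It stayed under the median of all values in each of the 7 arrays, so its difference of 0.06 ± 0.05 (SE), with a limma adjusted p of 0.711, is between dim signals. Colec12, a receptor with a sugar-binding lectin domain at its tip, read 5.69 and 5.68 in the Il10ra_mKO arrays, against 6.49, 6.25 and 5.85 in the WT resident arrays (probe set 10453747). It was lower without overlap, at a level near the median of all values, by -0.51 ± 0.22 (SE) with a limma adjusted p of 0.678. Signals this close to the floor of the array understate a change in RNA.

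Timd4 encodes Tim-4, which binds phosphatidylserine on dying cells and marks macrophages that maintain themselves in the gut without new monocytes. Log2 levels of Timd4 were 6.89 and 6.54 in the Il10ra_mKO arrays, against 7.22, 7.24 and 6.98 in the WT resident arrays (probe set 10375472). The groups lay next to each other without overlap. The difference was -0.43 ± 0.15 (SE), or 1.35-fold lower, with a 95% interval of -0.86 to 0.00 and a limma adjusted p of 0.631. Within the number runs it was -0.34 and -0.43. In these sorted pools, fewer cells that carry a receptor and less of its RNA per cell cannot be told apart, for Timd4 or any other receptor here.

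Interleukin-10 itself was missing in the Il10_KO mice, and there the receptors lay on both sides of the control array, as all genes did. This comparison is 1 array against 1, with no replicate check, and the standard errors given for it assume that its arrays vary as the resident arrays do. Lyve1 read 7.60 in the Il10_KO array and 9.46 in the WT CX3CR1hi array, 3.63-fold lower, and was the only receptor at least 2-fold lower, 1 of 10 against 1.22% of all genes. None was at least 2-fold higher, against 0.692% of all genes. The median over the 10 was 0.03, with 5 of 10 lower. Over all genes the median was 0.03 as well, with 8705 of 19938 lower.

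Colec12 read 5.93 in the Il10_KO array and 6.86 in the WT CX3CR1hi array, 1.9-fold lower. Folr2 read 9.11 in the Il10_KO array and 9.93 in the WT CX3CR1hi array, 1.77-fold lower. Cd163 read 7.62 in the Il10_KO array and 8.29 in the WT CX3CR1hi array, 1.59-fold lower. These 3 were thus on the lower side in both mutants. The mannose receptor Mrc1 read 12.20 in the Il10_KO array and 12.30 in the WT CX3CR1hi array. Stab1 read 11.92 in the Il10_KO array and 11.75 in the WT CX3CR1hi array, and Cd36 read 10.94 in the Il10_KO array and 10.67 in the WT CX3CR1hi array. For these 3 both arrays were within 0.3 log2 units.

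Msr1 read 11.49 in the Il10_KO array and 11 in the WT CX3CR1hi array. Timd4 read 8.35 in the Il10_KO array and 8.03 in the WT CX3CR1hi array. Marco read 4.69 in the Il10_KO array and 4.38 in the WT CX3CR1hi array, both dim. These 3 were higher in the mutant by less than 0.5 log2 units. With the spread of the resident arrays, 7.9% of all genes passed the adjusted p in this comparison, and 0 of the 10 receptors did. That share rests on the scaling and the assumed spread: 937 genes were lower and 639 higher as deposited, 17 and 4 after quantile normalization, 21 and 10 after median centring, and 2 and 0 with the filter on dim genes.

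Whether both mutant effects differ was tested in the same fit. It was -1.97 ± 0.81 (SE) for Folr2 (limma adjusted p = 0.401) and -1.33 ± 0.47 (SE) for Cd36 (limma adjusted p = 0.311), both further down in Il10ra_mKO. For Lyve1 it was 0.02 ± 1.59 (SE), an error too wide to order both effects. None of the 10 receptors passed an adjusted p of 0.05, against 4.7% of all genes. The Il10_KO sort label, kit and array batch differ from those of Il10ra_mKO, so a difference between the mutants cannot be told apart from these.

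**Figure D3:**
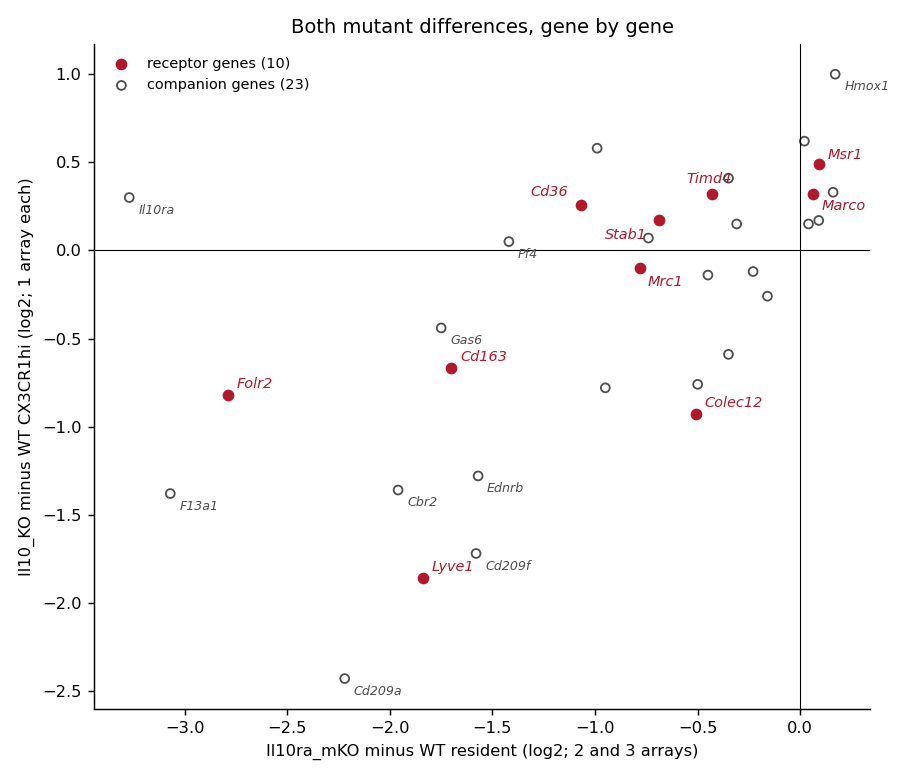
Log2 difference in Il10ra_mKO (horizontal, 2 arrays minus 3 WT resident arrays) and in Il10_KO (vertical, 1 array minus 1 WT CX3CR1hi array) for the 10 receptors (filled) and 23 other genes of resident macrophages (open). Lyve1 is low on both axes (-1.84 and -1.86), Folr2 lies far left at -2.79 and at -0.82 vertically, and Cd36 is left of 0 (-1.07) and above it (0.26).

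The receptors also differed in how closely their profiles over the 7 arrays ran together, measured as the root mean square distance between log2 profiles after each was centred on its own mean. Mrc1 and Cd36 were 0.186 apart, Cd36 and Stab1 0.208, and Mrc1 and Stab1 0.245. Folr2 and Cd163 were 0.645 apart, Cd163 and Lyve1 0.647, and Folr2 and Lyve1 0.871. Mrc1, Cd36 and Stab1 thus lay nearer to each other than Folr2, Cd163 and Lyve1 did. The profiles were not scaled, so receptors that vary more can lie further apart. Msr1 was 1.34 from Folr2 and 1.35 from Lyve1.

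By the same measure, the genes nearest to Folr2 among 18612 compared were Alox5 at 0.3, Acsm3 at 0.336 and Wfdc2 at 0.357. Alox5, the arachidonate 5-lipoxygenase that starts leukotriene synthesis, read 6.11 and 6.00 in the Il10ra_mKO arrays, against 9.23, 9.28 and 8.69 in the WT resident arrays. Acsm3, a medium-chain acyl-CoA synthetase, read 7.54 and 6.76 in the Il10ra_mKO arrays, against 9.75, 10.09 and 10.06 in the WT resident arrays. Both were picked for their nearness to Folr2 over these same arrays, so being low where Folr2 was low follows from that choice. The genes nearest to Msr1, the receptor with the highest difference, were Tmx4 at 0.0691, Faim at 0.0699 and Hsdl2 at 0.0741, all of nearly flat profile. These distances describe 7 arrays that share the genotype contrast.

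Of 20 other scavenger receptors, 1 was lower and 4 were higher in Il10ra_mKO at an unadjusted p under 0.05, and the list's median difference was 0.01. Of all genes 3.86% were lower and 4.06% higher at that p, and 1.35% were at least 2-fold lower without overlap. These shares stand beside the counts of each list below. Fcrls, a scavenger receptor with Fc receptor-like domains, was the 1 gene of all to pass the adjusted p, and fell by 4.29 ± 0.08 (SE) on the log2 scale (limma adjusted p = 0.0194). It read 6.49 and 6.59 in the Il10ra_mKO arrays, against 10.86, 10.91 and 10.73 in the WT resident arrays. Cd209f, a lectin of the DC-SIGN family, was lower by -1.58 ± 0.72 (SE), with WT resident array 3 low again at 5.35. Olr1, the lectin-like receptor for oxidised lipoprotein, was 1.41 ± 0.24 (SE) higher, and Scarf1, a receptor of endothelium and phagocytes, 1.13 ± 0.17 (SE) higher, with limma adjusted p of 0.341 and 0.303. Both were also higher in the Il10_KO array than in the WT CX3CR1hi array, by 1.42 and 1.19. Scavenger receptors outside the 10 were therefore on either side. Of the 20, 11 stayed under the median of all values in all 7 arrays, against 1 of the 10 receptors. Differences of such dim genes are understated, so the list's median of 0.01 does not show that its genes were unchanged.

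Of 18 lipoprotein and other endocytic receptors, 1 was lower and 1 higher at an unadjusted p under 0.05, with a median of 0.00. That median includes 7 genes under the median of all values in all 7 arrays, whose differences are understated. Sort1, the sorting receptor sortilin, differed by -0.92 ± 0.30 (SE), and Lrp8, a receptor for apolipoprotein E and reelin, by 0.56 ± 0.10 (SE). Tfrc, the transferrin receptor, differed by -0.66 ± 0.38 (SE) and Sorl1, a relative of sortilin, by 0.66 ± 0.24 (SE). Within the number runs Tfrc differed by 0 and -1.42. Of 26 genes of the clathrin coat, endosomes and macropinocytosis, 6 were lower and 0 higher at that p, with a median of -0.04. Of all genes 3.86% were lower and 4.06% higher. Eps15, a clathrin adaptor, differed by -0.74 ± 0.14 (SE) with a limma adjusted p of 0.371. Hook1, which links endosomes to microtubules, differed by -0.77 ± 0.44 (SE), and by -0.12 and -1.4 within the number runs. Snx1, a retromer subunit, differed by 0.18 ± 0.21 (SE), and Ap2s1, a subunit of the clathrin adaptor AP-2, by 0.19 ± 0.14 (SE). Of the 26, 8 were lower without overlap, against 8.5% of all genes, and 0 were at least 2-fold lower without overlap. Over all genes 1.35% met that last rule, so a list of this size may hold none, and the 0 is not read as a result.

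Of 20 receptors and bridging proteins for phosphatidylserine and dying cells, 2 were lower and 1 higher at an unadjusted p under 0.05, with a median of 0.02. That median, too, includes 7 genes under the median of all values in all 7 arrays. Gas6, a bridging ligand between phosphatidylserine and the TAM receptors, read 8.89 and 8.61 in the Il10ra_mKO arrays, against 10.72, 10.59 and 10.20 in the WT resident arrays. Its difference was -1.75 ± 0.20 (SE), with a limma adjusted p of 0.243. Its partner Mertk differed the other way by 0.95 ± 0.39 (SE), and the second bridging protein Pros1 by -0.83 ± 0.41 (SE). Neither was called at that unadjusted p, and the other lower gene called beside Gas6 was Mfge8, at -0.72 ± 0.15 (SE). Cd300lf, a phosphatidylserine receptor with inhibitory motifs, read 8 and 8.53 in the Il10ra_mKO arrays, against 5.24, 5.15 and 5.31 in the WT resident arrays, a difference of 3.04 ± 0.19 (SE) with a limma adjusted p of 0.128.

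**Figure D4:**
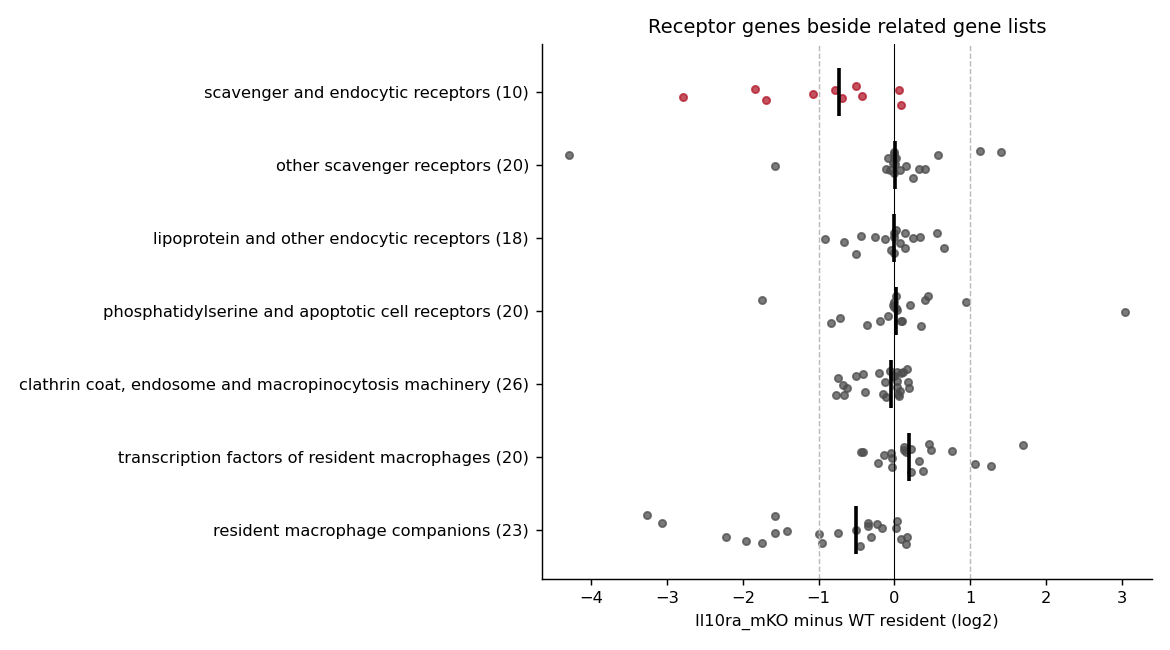
Log2 difference, Il10ra_mKO minus WT resident, of each measured gene of the 10 receptors and of 6 related gene lists, with each list's median as a bar and dashed lines at a 2-fold difference. The 10 receptors have a median of -0.73 and the resident macrophage companions -0.50, and the other lists lie between -0.04 and 0.19. The lists differ in dim genes, those under the median of all values in all 7 arrays, whose differences are understated. These are 1 of the 10 receptors, 11 of 20 other scavenger, 7 of 18 endocytic and 7 of 20 phosphatidylserine genes. They are 1 of 26 clathrin and endosome genes, 2 of 23 companions and 0 of 20 transcription factors.

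Of 23 genes that accompany these receptors on resident macrophages, 11 were lower and 0 higher at an unadjusted p under 0.05, and 8 were at least 2-fold lower without overlap, among them the deleted Il10ra. Their median difference was -0.50. Gas6, Cd209f and Hmox1 stand in this list as well as in those above, Hmox1 among the clathrin and endosome genes. F13a1, the A subunit of coagulation factor XIII, read 7.57 and 7.40 in the Il10ra_mKO arrays, against 10.99, 10.77 and 9.89 in the WT resident arrays, a difference of -3.07 ± 0.39 (SE) with a limma adjusted p of 0.258. C1qa, which encodes a chain of complement C1q, read 12.23 and 12.48 in the Il10ra_mKO arrays, against 12.18, 12.22 and 12.18 in the WT resident arrays. Hmox1, the haem oxygenase that acts downstream of haemoglobin uptake by CD163, differed by 0.17 ± 0.16 (SE) in Il10ra_mKO and read 10.92 in the Il10_KO array and 9.92 in the WT CX3CR1hi array. The list thus held genes far below the WT resident level beside others at or above it.

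Of 20 transcription factors of resident macrophages, 0 were lower and 4 higher at an unadjusted p under 0.05, with a median of 0.19. Nr1h3, the oxysterol receptor LXR alpha, read 9.48 and 10.06 in the Il10ra_mKO arrays, against 8.07, 7.75 and 8.39 in the WT resident arrays, a difference of 1.70 ± 0.28 (SE) with a limma adjusted p of 0.341. Cebpb differed by 1.27 ± 0.42 (SE), Nr4a1 by -0.44 ± 0.24 (SE) and Irf4 by -0.41 ± 0.37 (SE). No factor of the list was therefore low in the way Folr2 was.

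Markers of other cells that a colon sort could hold were read beside the receptors. Of 14 fibroblast and muscle markers, 9 were lower and 1 higher in Il10ra_mKO at an unadjusted p under 0.05, with a median difference of -0.78, close to that of the 10 receptors. Their mean was 6.44 and 6.41 in the Il10ra_mKO arrays, against 7.16, 7.35 and 6.91 in the WT resident arrays, and 6.32 in the Il10_KO array against 6.92 in the WT CX3CR1hi array. Dpt, the extracellular matrix protein dermatopontin, read 7.00 and 7.71 in the Il10ra_mKO arrays, against 9.39, 9.76 and 9.01 in the WT resident arrays. Of the muscle genes, Acta2 differed by -0.39, Myh11 by -0.46, Tagln by -0.08 and Des by 0.01, each with overlapping arrays. The part of fibroblast RNA in the receptor differences was not tested.

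Lyve1, Stab1 and Cd36 are also made by endothelium. Of 14 endothelial markers measured, 8 stayed below 5.86 in all 7 arrays, among them the lymphatic genes Prox1, Flt4 and Reln. Over the 14, 10 had a lower mean in Il10ra_mKO, where 10188 of all 19938 genes did. Of the 14, 5 were lower with no overlap, against 8.5% of all genes, and the median difference was -0.05. Pdpn, a lymphatic marker that fibroblasts also make, read 6.75 and 6.28 in the Il10ra_mKO arrays, against 7.04, 7.21 and 7.38 in the WT resident arrays. Cdh5, the cadherin of endothelial junctions, read 6.05 and 5.50 in the Il10ra_mKO arrays, against 6.09, 6.50 and 6.29 in the WT resident arrays. Both were lower without overlap, while Pecam1, found on endothelium and leukocytes, was higher by 0.58 ± 0.32 (SE). The mean of the 14 was 5.67 and 5.58 in the Il10ra_mKO arrays, against 5.66, 5.74 and 5.76 in the WT resident arrays, a mean over dim genes and over genes that differed in opposite directions. The part of endothelial RNA in the receptor differences was not tested. All 6 adipocyte markers measured, of a cell type that also makes Cd36, stayed below 5.86 in all arrays.

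Monocyte markers averaged 8.64 and 8.05 in the Il10ra_mKO arrays, against 7.76, 7.89 and 8 in the WT resident arrays, and 7.53 in the Il10_KO array against 7.45 in the WT CX3CR1hi array. Dendritic cell markers averaged 7.25 and 7.36 in the Il10ra_mKO arrays, against 6.94, 6.77 and 6.96 in the WT resident arrays. Neutrophil markers averaged 6.31 and 5.90 in the Il10ra_mKO arrays, against 5.64, 5.63 and 5.69 in the WT resident arrays. All 3 means were higher in both Il10ra_mKO arrays, but the monocyte and dendritic lists did not move as one. The median difference was 0.03 over 8 monocyte markers and 0.05 over 10 dendritic cell markers, with 4 lower in each list, and 0.34 over 10 neutrophil markers with 0 lower. Single genes lay far out, such as F10 at 3.12 and Fn1 at -1.46 among the monocyte markers, and Clec9a at 2.91 and Cd24a at -1.13 among the dendritic cell markers. Lymphocyte and plasma cell markers averaged 6.74 and 7.00 in the Il10ra_mKO arrays, against 6.53, 6.38 and 6.42 in the WT resident arrays. Epithelial markers averaged 10.78 and 8.90 in the Il10ra_mKO arrays, against 10.71, 11.07 and 10.70 in the WT resident arrays. Il10ra_mKO array 2, at 8.90, thus stood apart. Over 13 epithelial markers the median difference was -0.87, with 12 lower, 5 of them without overlap, against 8.5% of all genes. In Il10_KO the median over these markers was -0.58, with 12 lower. The part of these other cells in the receptor differences was not tested.

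**Figure D5:**
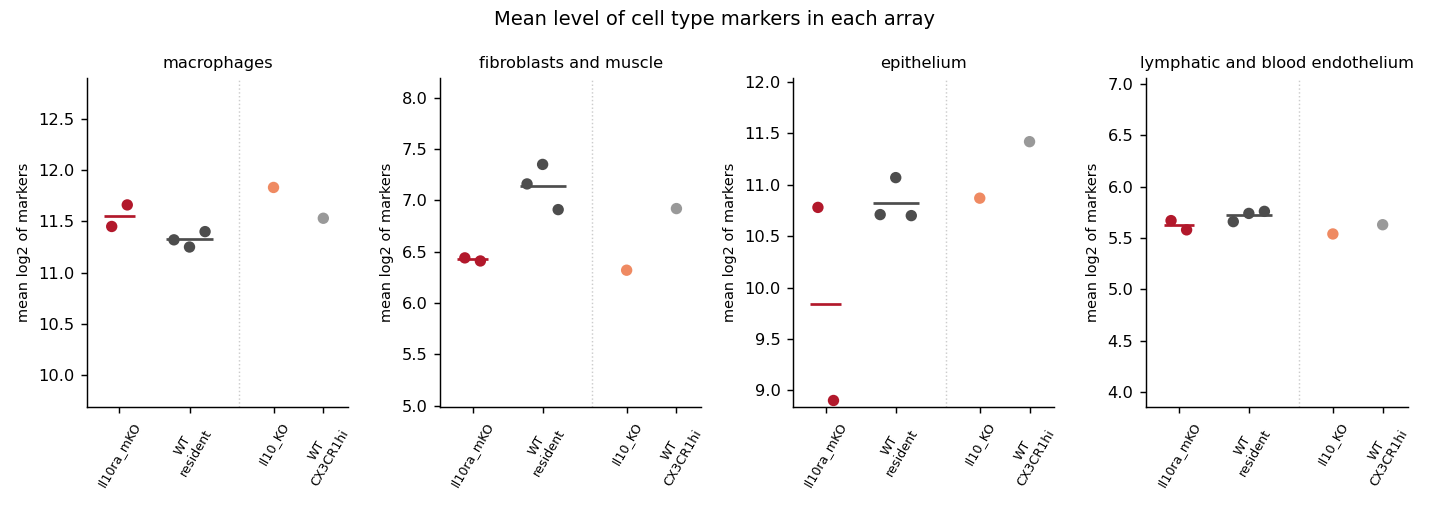
Mean log2 level of the measured markers of macrophages, fibroblasts and muscle, epithelium, and endothelium in every array (points, with group means as lines), Il10ra_mKO left of WT resident and Il10_KO left of WT CX3CR1hi. The macrophage mean lies between 11.25 and 11.83 in all arrays, over markers that moved either way. The fibroblast and muscle mean is lower in Il10ra_mKO (6.44 and 6.41 against 6.91 to 7.35) and in Il10_KO (6.32 against 6.92).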

How the data were processed

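RNA from macrophages sorted from mouse colon was hybridised to 7 Affymetrix arrays. The authors deposited log2 expression values, 1 per probe set. Per the submitters' processing notes they used RMA, a method of background correction, normalization and probe summary, and the program Partek. Versions were not given in the sources used here. Low values are drawn together by RMA, so differences of dim genes are understated, and precision is limited by the few arrays. Samples were grouped by the genotype and sort label in their labels, and array numbers only name the arrays.

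Of 35399 rows, 21789 carried exactly 1 gene symbol, 1621 several and 11989 none, by GEO's platform annotation. Of the first, 21698 matched RefSeq (GRCm38.p6) by gene ID, which changed 0 symbols. The brightest row per gene was kept, for 19938 genes, with no filter on brightness. Groups were compared with limma 3.58.1 in R 4.3.3 (lmFit and eBayes with a trend), in 1 fit of all 7 arrays with the 4 groups as terms, a prior of 0.831 degrees of freedom added to the 3 residual ones. Two-sided p-values were Benjamini-Hochberg adjusted over all 19938 genes. The fit was tested on simulated data.

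The receptors, the related lists and the markers were chosen with earlier results of these data known. Besides the receptors, the text names from each related list the 2 genes with the lowest and the 2 with the highest difference, and the 3 genes nearest in profile to the receptors with the lowest and highest difference. Other genes named, and those given for WT resident array 3 and the marker lists, were chosen after their values were seen. Alternatives were a brightness filter (10558 genes above 5.86 in at least 2 arrays), quantile normalization, median centring, other settings of limma, the number run as a block, a fit that ignores the sort label, and leaving out each of the 5 resident arrays in turn.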

Additional observations from a re-analysis of the deposited data

How the results depend on the processing

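Folr2 stayed lower in Il10ra_mKO than in WT resident under all 14 alternatives, with differences of -3.26 to -2.33 and limma adjusted p of 0.0327 to 0.783. It passed the adjusted p with median centring (1 receptor, 0.0327) and when the sort label was ignored (1 receptor, 0.0342), and in no other alternative. The count of receptors at an unadjusted p under 0.05, 3 as reported, was 7 after quantile normalization, 8 after median centring and 7 with the sort label ignored. Over all genes those settings gave 1012 lower and 964 higher, 803 and 1484, and 792 and 507. The receptor count was 1 without WT resident array 2, with 474 genes lower and 472 higher over all. Without WT resident array 3 it was 6, with 687 genes lower and 814 higher. The median difference over the 10 receptors ran from -1.04 (Il10ra_mKO array 2 left out) to -0.55 (Il10ra_mKO array 1 left out), and was -1.17 and -0.44 within the 2 number runs. The count at least 2-fold lower without overlap, 4 as reported, moved when single arrays were left out. Fewer arrays make a lack of overlap easier to meet, and the share of all genes was not taken there. No result about the receptors is therefore read from those counts. For the difference between mutant effects, 0 to 1 receptors were past the adjusted p with single resident arrays left out. The 1 was the dim Marco, at -0.33 without Il10ra_mKO array 1 and -0.18 without array 2, where each mutant has 1 array left and the p rests on an assumed spread, so no difference is read from it.

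Signs turned for small or noisy differences. Ignoring the sort label gave -0.14 for Marco in Il10_KO and 0.36 and -0.24 for the difference between mutant effects of Marco and Colec12. Leaving out single arrays gave -0.02 to 0.22 for Msr1 and -0.02 to 0.14 for Marco in Il10ra_mKO, and -0.73 to 0.45 for the Lyve1 difference between mutant effects. Within the run of arrays 67 and 68, Stab1 was 0.11, Marco -0.02 and Msr1 -0.18. The cause was not tested. Over all genes, 1 gene was lower and 0 higher at the adjusted p in Il10ra_mKO as reported, against 56 and 58 after quantile normalization, 65 and 81 after median centring, 7 and 5 with the brightness filter, and 0 and 0 with the number run as a block. For Il10_KO the counts were 937 lower and 639 higher, against 17 and 4 after quantile normalization, 21 and 10 after median centring, and 2 and 0 with the brightness filter. For the difference between mutant effects, 360 genes were lower and 577 higher, against 0 and 1 with the brightness filter.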
